A study of Mus musculus with 9 samples.

Results

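RelA binding after 6 h of TNF was compared with binding before treatment in NfkB2-/- MEFs, using the 4 peak lists made with the antibody against RelA (p65), 2 libraries at 0 h and 2 at 6 h. Peaks of these lists that overlapped by at least 1 bp were joined into sites. A site with a peak in both 6 h lists and in neither 0 h list was called gained, a site with a peak at each time kept, and a site with peaks at 0 h only lost. The 4 lists gave 10416 sites, of 15069 when the RelB lists of the same series were added. Of the 10416 RelA sites, 2536 were gained, 41 were kept, 271 were lost and the remaining 7568 had a peak in a single 6 h list.

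All libraries came from mouse embryonic fibroblasts of the genotype NfkB2-/-, which the 0 h and 6 h groups share, so that wild-type cells were not part of the comparison. Per the methods, the MEFs were made from mid-gestation C57BL/6 embryos and immortalised by serial passage. The treatment was 10 ng/ml TNF for 6 h, and the labels give the 0 h cells as the same dose for 0 h. The labels number the 2 libraries of each time but do not say whether they came from separate cultures, so the spread between them may be technical. Sequencing depth is not part of the lists, but the factor by which input reads were scaled to each ChIP library could be recovered. It was 0.482 and 0.568 in the 0 h libraries and 0.513 and 0.557 in the 6 h libraries, so the 2 times overlapped in this measure of relative depth.

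RelA is the transactivating subunit of the RelA:p50 heterodimer, the main effector of the canonical NF-κB pathway. In resting cells IκB proteins hold this dimer in the cytoplasm. TNF activates the IκB kinase, IκB is degraded, and the dimer enters the nucleus and binds κB sites in the promoters and enhancers of inflammatory, survival and feedback genes. The Nfkb2 gene encodes p100, a further inhibitor, which these cells lack.

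Most gained sites, 1808 of 2536, held a match to the κB consensus within 100 bp of the centre, and 728 held none. Of those with a match, 7 are shown here because they lie at genes that recur below and outside annotated exons. Sequences are from the plus strand of mm9, centred on the site, with every base that belongs to a match to the κB consensus in capitals.
Relb, upstream, chr7:20214829-20215029: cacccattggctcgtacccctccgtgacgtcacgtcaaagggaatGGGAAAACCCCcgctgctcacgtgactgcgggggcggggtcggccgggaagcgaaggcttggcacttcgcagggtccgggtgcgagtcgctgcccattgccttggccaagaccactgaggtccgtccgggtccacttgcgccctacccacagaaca
Ripk2, upstream, chr4:16095741-16095841: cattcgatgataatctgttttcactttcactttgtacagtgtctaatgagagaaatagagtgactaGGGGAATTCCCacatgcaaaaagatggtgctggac
Csf1, upstream, chr3:107578821-107578921: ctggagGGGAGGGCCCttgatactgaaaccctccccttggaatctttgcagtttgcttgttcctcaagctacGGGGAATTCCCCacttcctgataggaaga
Bcl3, intron, chr7:20402939-20403039: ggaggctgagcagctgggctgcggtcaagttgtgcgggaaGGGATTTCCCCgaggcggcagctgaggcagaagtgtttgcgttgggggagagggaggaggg
Icam1, intron, chr9:20826498-20826598: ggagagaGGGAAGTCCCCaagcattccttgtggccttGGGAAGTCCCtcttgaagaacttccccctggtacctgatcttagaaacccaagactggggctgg
Ccl2, upstream, chr11:81832967-81833167: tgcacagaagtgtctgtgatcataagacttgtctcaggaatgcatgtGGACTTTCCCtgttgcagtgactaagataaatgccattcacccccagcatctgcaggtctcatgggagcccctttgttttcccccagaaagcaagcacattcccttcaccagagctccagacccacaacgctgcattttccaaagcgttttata
Extl2, intergenic, chr3:115750067-115750167: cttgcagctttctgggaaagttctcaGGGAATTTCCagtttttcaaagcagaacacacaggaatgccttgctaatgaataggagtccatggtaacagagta
In the upstream site of Relb, which encodes the partner subunit RelB, and in the Ccl2 site, the match lay more than 50 bp from the centre, so 201 bases are shown in place of 101.

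Peak numbers rose from 182 and 194 at 0 h to 7052 and 5688 at 6 h. The 2 times did not overlap, and the ratio of the geometric means was 33.7. An exact permutation test (two-sided) gave p = 0.333, below which a design with 2 libraries per time cannot go. With peaks at an FDR under 0.01 alone there were 62 and 105 at 0 h against 3307 and 2786 at 6 h, a ratio of 37.6. Taking a peak in 1 list as sufficient at 6 h, by leaving out library 1 or 2, there were 5675 and 7020 gained sites. The 2 lists at 6 h had 2541 sites in common, which made up 36.2% of the sites of library 1 and 44.9% of those of library 2. The 2 lists at 0 h had 56 in common, 31.3% and 29.6% of their sites. Between times the shared part was far smaller. At most 13.2% of the sites of a 0 h list had a peak in a 6 h list, and at most 0.356% of the sites of a 6 h list had one in a 0 h list.

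**Figure D1:**
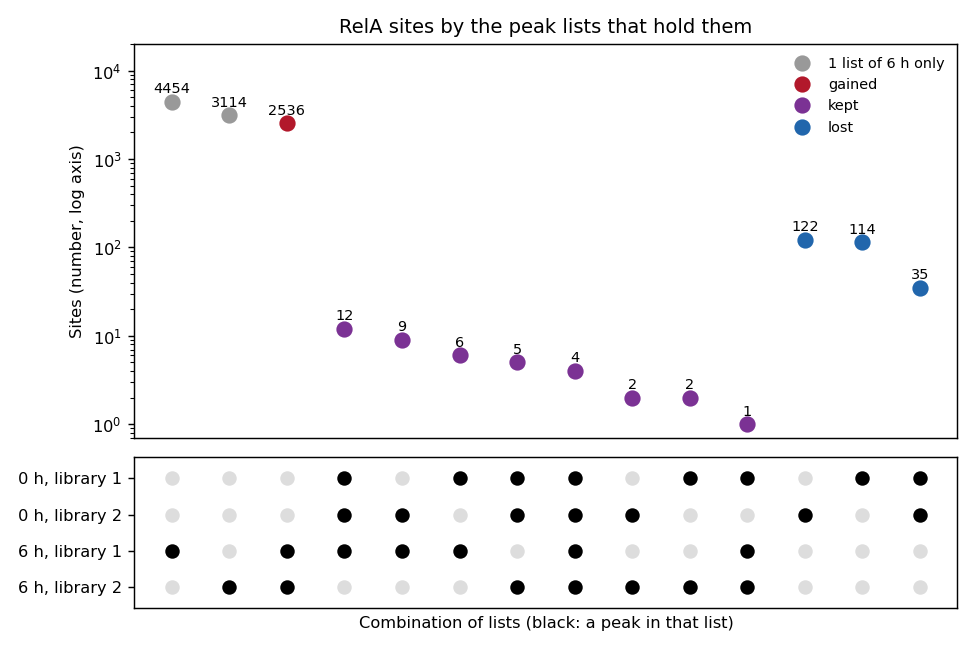
Number of RelA sites (log axis) in each combination of the 4 peak lists, with black dots below marking the lists that held a peak. The 2536 gained sites outnumber the 41 kept and 271 lost sites, and only 4 sites had a peak in all 4 lists. A gained site needed both 6 h lists, whereas 236 lost sites had a peak in 1 list of 0 h and 35 in both.

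Read numbers separated the gained sites from the 0 h peaks only in part. Each list gives the ChIP reads in the fullest window of a peak, its ChIP and input reads in all, and the log2 fold over scaled input in the strongest window. At gained sites the fullest window held 11 to 72 ChIP reads in library 1 and 11 to 91 in library 2, with a median of 17 in each. At 0 h the fullest window held 13 to 32 reads in both libraries, with medians of 14 and 15. A gained site exceeded all 0 h peaks, with more than 32 reads in both 6 h libraries, in 79 cases. In 440 gained sites the fullest window held fewer than 13 reads in 1 or both 6 h libraries, which is below the smallest number that was called at 0 h. The median ChIP reads per gained site were 29 and 28 and the median input reads 9 in both libraries. The median log2 fold at gained sites was 3.10 and 3.06. The 2 libraries differed at a gained site by a median of 0.28 on the log2 scale in either direction, with an SD of the difference of 0.47.

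The strongest gained site lay in an intron of Stx8, a gene for a syntaxin of the endosomal membrane, and the next at Ripk2, the kinase downstream of NOD receptors. These were followed by the start site of Nfkbiz, which encodes the nuclear IκB protein IκBζ. At Nfkbiz (chromosome 16, 55838966 to 55839032) the fullest window held 50 and 45 ChIP reads and the log2 fold was 5.67 and 5.52. The Relb promoter came next, with 55 and 49 reads and a log2 fold of 5.21 and 5.29. A site 39737 bp from the Extl2 start, on the side of Vcam1, had a log2 fold of 5.13 and 5.25. The site at Junb, which encodes an AP-1 subunit, was 2094 bp downstream of the start (chromosome 8, 87500423 to 87500624), with 5.26 and 5.09. Among the 10 strongest gained sites, those nearest to Gm9726, 5330437I02Rik, D730045B01Rik and Hrh4 lay more than 40 kb from any protein-coding start site. The weakest 3 gained sites, at Sh3bp2, Zfp438 and 5033411D12Rik, had a log2 fold between 1.52 and 1.71 and 12 to 14 reads in the fullest window. None of these 13 sites had a peak in a 0 h list, which says only that the threshold was not reached there.

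The genes of the NF-κB subunits and of IκB proteins and deubiquitinase feedback in the lists used here all had a gained site within 50 kb. These lists were chosen with earlier results of these data known. Of 22367 protein-coding genes, 2985 had a start site less than 50 kb from a gained site, 13.3% of all, and 650 had one less than 5 kb away, 2.91%. All 5 NF-κB subunit genes had a gained site within 5 kb. At Nfkb2 the site spanned the start of the gene (chromosome 19, 46379190 to 46379353), with 58 and 56 reads in the fullest window and a log2 fold of 4.68 and 4.59, although the cells are NfkB2-/-, and the lists do not show which part of the gene was deleted. The site at Rela, 191 bp downstream of its start, had a log2 fold of 4.16 and 4.06 and was the only one of the 5 without a κB match within 100 bp of the centre. That site extends beyond the bases searched. At Rel the values were 3.90 and 3.98, and at Nfkb1, the gene for p50, 3.51 and 3.38. For each of the 5 genes the 2 libraries differed by less than the median difference of 0.28 over all gained sites.

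The IκB proteins and feedback regulators followed. All 12 genes for IκB proteins and deubiquitinase feedback had a gained site within 50 kb, and 10 of them within 5 kb. The start of Nfkbia, the gene for IκBα, held 267 and 237 ChIP reads, the most of any gene of the lists, with 38 input reads in each and a log2 fold of 4.65 and 4.53. At Tnfaip3, which encodes the deubiquitinase A20, the site was 203 bp downstream of the start (chromosome 10, 18735188 to 18735333). Its fullest window held 55 reads in both libraries and its log2 fold was 4.76 and 4.70. The strongest Bcl3 site lay in an intron, with 4.70 and 4.58. At Tnip3, where the libraries agreed least, the folds were 3.58 and 2.39. Otud7b and Tnip2 had their gained sites only beyond 5 kb, the latter with folds of 1.67 and 1.52 at a site inside Sh3bp2.

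Upstream of the IκB proteins, gained sites were found at part of the genes. Of 18 genes for receptor-proximal signalling, 11 had a gained site within 50 kb and 8 within 5 kb. Birc3, which encodes the ubiquitin ligase cIAP2, had one 119 bp downstream of its start with 50 and 65 reads in the fullest window and a log2 fold of 4.6 and 4.94. At Traf3, an inhibitor of the non-canonical pathway, the fold was 4.25 and 3.56. The IκB kinase genes Chuk, Ikbkb, Ikbkg and Ikbke, the kinase genes Map3k7 and Ripk1 and the receptor gene Tnfrsf1a had no gained site within 50 kb.

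**Figure D2:**
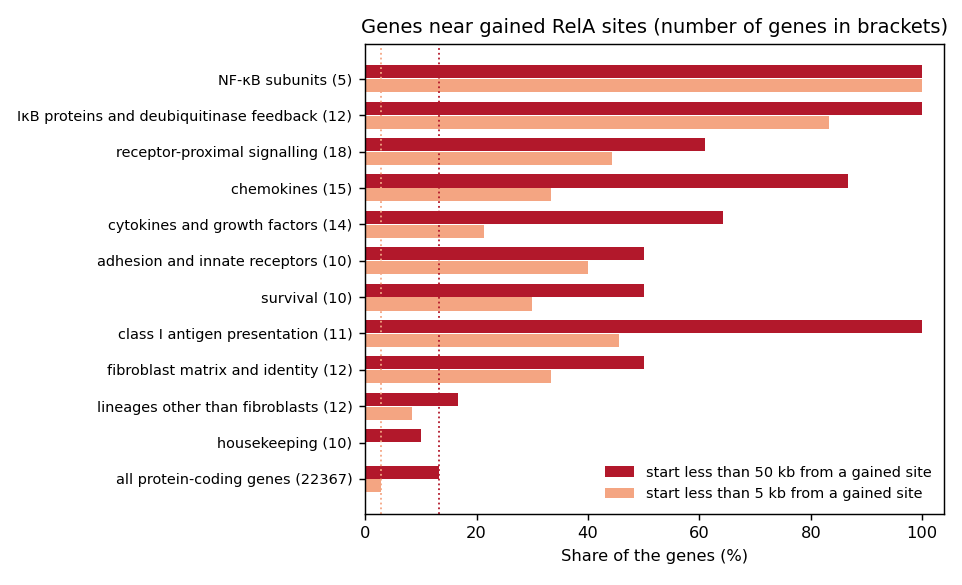
Share of the genes of each list (%) whose start site lay less than 50 kb (dark bars) or less than 5 kb (light bars) from a gained RelA site, with dotted lines at the shares over all protein-coding genes, 13.3% and 2.91%. NF-κB subunits and IκB or deubiquitinase genes reached 100% at 50 kb, and housekeeping genes stood at 10.0%.

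Among the secreted products of the response, 13 of the 15 annotated chemokine genes had a gained site within 50 kb and 5 within 5 kb. These 13 genes share 8 different strongest sites, since chemokine genes lie in clusters. Over all protein-coding genes the highest number of gained sites within 50 kb was 5, reached by 7 genes, of which Ccl2, Ccl22, Ccl7, Ccl9 and the cytochrome gene Cyp1b1 are the first in the alphabet. At Ccl2, which attracts monocytes, the strongest was 16006 bp upstream (chromosome 11, 81832694 to 81833440), with 30 and 41 reads and a log2 fold of 4.36 and 4.72. At Cxcl1, a neutrophil attractant, it was at the start, with 4.70 and 3.91. For Cxcl10 the fold was 4.47 and 4.28, with no κB match within 100 bp of the centre. That site (chromosome 5, 92777769 to 92778678) extends well beyond the bases searched. Cxcl12 and Ccl8 had no gained site within 50 kb. Of 14 cytokine and growth factor genes, 9 had a gained site within 50 kb but only 3 within 5 kb. These 9 genes share 6 different strongest sites, since Tnf, Lta and Ltb have one in common inside Aif1, and Il1a and Il1b another. Csf1, the macrophage growth factor, had its strongest site 15484 bp upstream, with 24 and 36 reads and folds of 4.64 and 5.21. Il6, Il15, Il33, Csf2 and Csf3 had none.

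Of 10 genes for adhesion molecules and innate receptors, 5 had a gained site within 50 kb and 4 within 5 kb. The site at the Vcam1 start had folds of 3.58 and 2.89, that in the Icam1 intron 3.8 and 3.68, and that at the death receptor gene Fas 4.69 and 4.53. Sele, Selp, Madcam1, Tlr3 and Cd40 had none. All 11 annotated genes of class I antigen presentation had one within 50 kb, but only 5 within 5 kb. Between them the 11 genes had 7 different strongest sites. Psmb8, Psmb9, Tap1 and Tap2 shared 1 of them, with folds of 2.79 and 2.83, whereas B2m, the class I light chain, had its own with 4.52 and 4.39. Of the 10 genes on the survival list, 5 had a gained site within 50 kb and 3 within 5 kb. Among them was Sod2, the mitochondrial superoxide dismutase, with folds of 3.90 and 4.08 in an intron. Bcl2, Bcl2l1, Xiap and Cflar had none, nor had Bcl2l11, which is on this list although it promotes cell death.

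Lists outside the NF-κB response were counted in the same way. Of 12 fibroblast matrix and identity genes, 6 had a gained site within 50 kb and 4 within 5 kb, the same share at 50 kb as the adhesion and survival lists and near theirs at 5 kb, with the weakest at S100a4, at folds of 2.20 and 1.52. The site counted for Acta2, the gene for smooth muscle actin, is the one at the Fas start. Of 12 genes of other lineages 2 had a gained site, Myod1 and Gfap, and of 10 housekeeping genes 1, Actb, at 42945 bp. These shares, 16.7% and 10.0%, lie near the 13.3% of all protein-coding genes. No gene of any list had a site of a 0 h list within 50 kb, while 235 protein-coding genes had one, 1.05% of all.

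Gained sites lay at start sites more often than the share of genome bases there. By the position of the centre, 402 of 2536 were within 1 kb of an annotated start site, 15.9% (Wilson 95% interval 14.5 to 17.3%), against 2.69% of genome bases. Introns held 38.1%, near their 36.8% of bases, and intergenic sequence 43.5%, below its 57.7%. The median distance to a protein-coding start was 28248 bp. Promoter, intron and intergenic sites were alike in strength, with a median of the mean log2 fold of 3.09, 3.08 and 3.04. Lost sites had the same 15.9% at start sites (12 to 20.7%) but more in exons, 10.7% (7.55 to 14.9%) against 2.48% (1.95 to 3.17%) of gained sites. Their median distance was 4142 bp, and that of kept sites 3277 bp. A centre within 5 kb of a protein-coding start was found for 55.0% of lost, 70.7% of kept and 23.4% of gained sites.

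**Figure D3:**
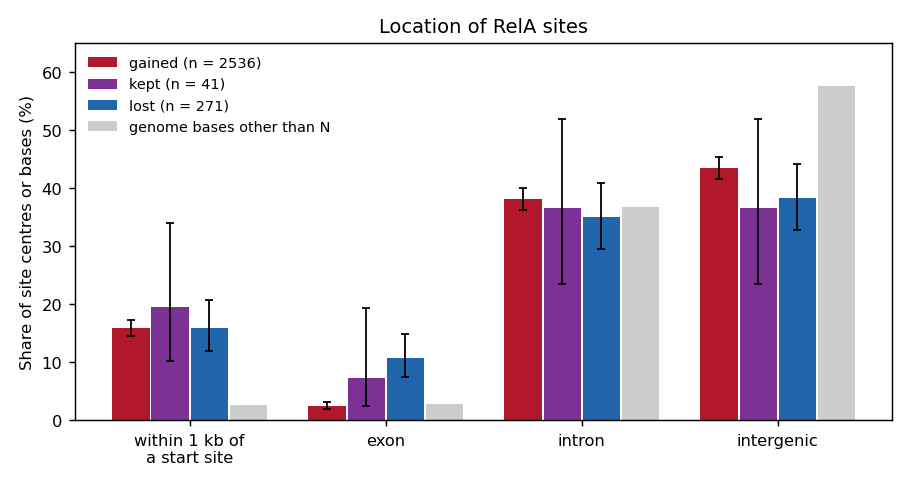
Share of site centres (%) within 1 kb of a start site, in exons, in introns and between genes for gained, kept and lost RelA sites, with Wilson 95% intervals, beside the share of genome bases. All 3 kinds of site exceed the 2.69% of bases near start sites, and lost sites have the highest share in exons after the exclusion of promoters.

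Gained sites were spread over the autosomes at 0.575 to 1.46 per Mb, the lowest on chromosome 14 and the highest on chromosome 11. Chromosome X held 9 gained sites, 0.054 per Mb, and chromosome Y none. Of the 12 lost sites on the sex chromosomes, 7 were on Y, where the 1 kept site also lay. The lists do not give read depth per chromosome, so its part in these numbers was not tested.

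The κB consensus set the gained sites apart. It was searched by name on both strands within 100 bp of the centre. Of 2536 gained sites, 1808 held a match, 71.3% (69.5 to 73.0%), against 12.3% (11.4 to 13.2%) of windows 1000 bp to either side and 21.1% of the windows around all protein-coding start sites. Of sites in a single 6 h list, 38.1% held one. Along the range of strength the share went from 65.9% in the weakest 634 gained sites to 76.2% in the strongest 634. It was 72.9% at promoters, 72.9% in introns and 69.6% between genes. Within gained sites 996 had 1 match, 562 had 2 and 250 had more. Each match was read on the strand that fits the consensus, or, where both do, on the one whose word comes last in the alphabet. The most frequent was GGGACTTTCC, the word of the immunoglobulin κ enhancer, in 191 gained sites, with 7 matches in the 5071 flanking windows and none in 0 h sites. GGGGATTTCC followed in 162 gained sites, GGGGAATTCC in 144 and GGGAATTTCC in 125, and none of these 3 occurred in a 0 h site.

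Motifs of other factors were less frequent. The AP-1 motif TGANTCA was present at 15.4% of gained sites (14.1 to 16.9%) and 6.57% of their flanks, and the TEAD motif GGAATG at 19.5% (18 to 21.1%) and 10.7%. GGAATG can share bases with a κB match, and this overlap was not removed. The AP-1 share was 6.47% (4.45 to 9.31%) at promoters and 17.8% (15.6 to 20.1%) between genes, while all protein-coding start sites had 4.16%. The CRE motif TGACGTCA was found in 18 gained sites, 0.71% (0.449 to 1.12%), against 0.158% of their flanks and 1.93% of all protein-coding start sites.

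The sites of the 0 h lists had another sequence. Of the 312 sites with a peak at 0 h, 16.7% (12.9 to 21.2%) held a κB match, against 17.1% of their flanks. For the 35 lost sites in both 0 h lists this was 2 of 35, 5.71% (1.58 to 18.6%). The AP-1 motif was found at 7 of the 312. The CpG content was higher than at gained sites, and so was that of their flanks. As the ratio of observed to expected CpG dinucleotides in 201 bases, the median was 0.228 at gained sites, 0.590 at kept sites, 0.514 at lost sites of 1 list and 0.718 at lost sites of both lists. Over all 0 h sites it was 0.556, with 0.435 in windows 1000 bp away, while the flanks of gained sites had 0.19 and all protein-coding start sites 0.61. The GC content went the other way, with medians of 48.8% at gained and 45.3% at 0 h sites, although the flanks had 45.8% and 48.3%. To show this contrast, 5 kept or lost sites outside annotated exons are given with CpG in capitals, 101 bases of the plus strand of mm9 each.
Tlx2, kept, chr6:83020745-83020845: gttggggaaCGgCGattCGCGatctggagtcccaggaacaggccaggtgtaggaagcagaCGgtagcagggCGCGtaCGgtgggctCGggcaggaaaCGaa
Nkx2-3, kept, chr19:43682567-43682667: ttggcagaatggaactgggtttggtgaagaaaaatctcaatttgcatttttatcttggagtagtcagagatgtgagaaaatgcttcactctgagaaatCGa
Sim1, lost, chr10:50623376-50623476: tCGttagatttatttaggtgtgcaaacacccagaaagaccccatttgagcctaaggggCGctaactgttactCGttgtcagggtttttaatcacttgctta
Alx4, lost, chr2:93487103-93487203: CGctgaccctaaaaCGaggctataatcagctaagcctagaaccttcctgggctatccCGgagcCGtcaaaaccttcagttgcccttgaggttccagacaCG
Tal1, lost, chr4:114729822-114729922: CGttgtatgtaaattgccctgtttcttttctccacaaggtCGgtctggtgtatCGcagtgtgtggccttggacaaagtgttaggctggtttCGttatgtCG
CpG dinucleotides are spread through the Tlx2, Alx4 and Tal1 windows, and the Nkx2-3 window holds 1. None of these 5 windows except that of Alx4 has a κB match within 100 bp of the centre.

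**Figure D4:**
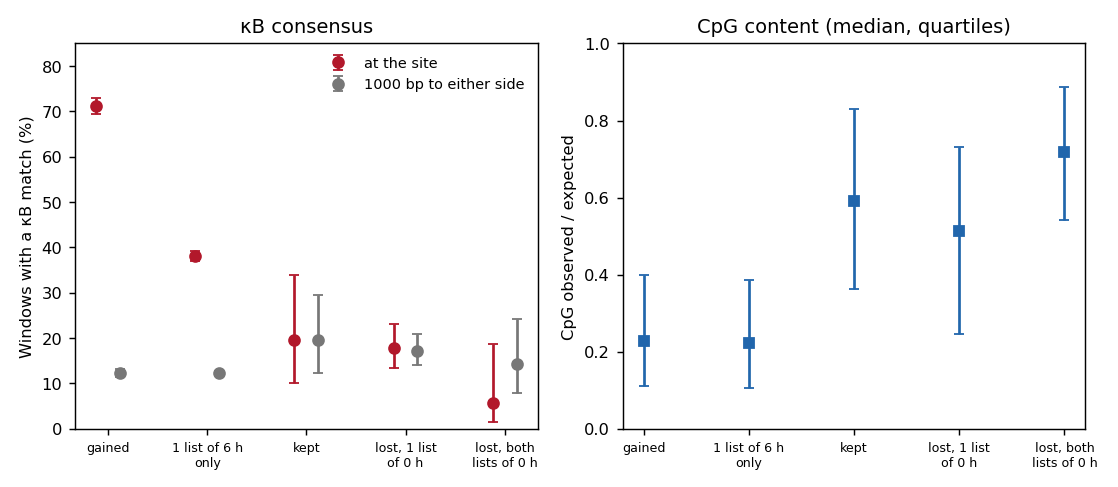
Left, share of windows (%) with a κB match at sites (red) and 1000 bp to either side (grey) with Wilson 95% intervals. Right, median and quartiles of the ratio of observed to expected CpG at the same sites. Gained sites have 71.3% κB matches and a CpG ratio of 0.228, while lost sites of both 0 h lists have 5.71% and 0.718.

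Regulators of embryonic development were frequent among the nearest genes of the 0 h sites. For 157 of the 312 sites, 50.3% (44.8 to 55.8%), the nearest protein-coding start belonged to a transcription factor of the homeobox or paired-box, forkhead, Sox, T-box, GATA, Zic and Gli or Sim families, which set cell identity in the embryo. The 157 sites belonged to 62 of the 162 different genes that were nearest to a 0 h site, since some genes had several. These families were chosen after the nearest genes had been seen. They make up 1.35% of protein-coding genes and were nearest to 45 of 2536 gained sites, 1.77% (1.33 to 2.37%). The homeobox and paired-box group accounted for 103 of the 157 and the forkhead genes for 21. Each 0 h list alone gave 47.5% and 55.0%. Of the 189 strongest sites of either 6 h list, as many as the sites of the longer 0 h list, 1 was nearest to such a gene. Sim1, which specifies hypothalamic neurons, was nearest to 9 sites of the 0 h lists, followed by 5 genes with 6 each, the LIM homeobox genes Isl2 and Lhx8 and, outside these families, Sp9, Gm3395 and Gm9953. The median input reads were 6 and 5 per peak of the 0 h lists and 9 per gained site in both 6 h libraries. They varied with the class of site. In the 0 h libraries they were 12.5 and 10 at kept sites and 8 and 7 at lost sites of both lists. At sites of a single 6 h list they were 4 and 5.

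The number of lost sites, 271, fell to 166 and 156 without 0 h library 1 and 2, and to 124 with peaks at an FDR under 0.01 alone. With peaks up to 200 bp apart merged there were 208 lost and 51 kept sites, so some lost sites adjoin a peak of a 6 h list. Lost sites with a peak in both 0 h lists were led by one 8931 bp from the start of Otx1, a forebrain homeobox gene (chromosome 11, 21893337 to 21894602). It had 81 and 64 ChIP reads against 26 and 17 input reads, and a log2 fold of 4.09 and 3.91. Evx1 followed with 3.91 and 4.0, and Foxa1, a forkhead gene of the endoderm, with 3.70 and 3.91. This Foxa1 site (chromosome 12, 58639242 to 58639290) lay close to a kept one (58638789 to 58638953). At Isl2 the folds were 3.52 and 3.44, at Alx4 3.52 and 3.35, and at Sim1 3.03 and 3.76. A gained and a kept site of Sim1 lay between its lost sites. Tal1, which is required for blood formation, had 3.43 and 3.16 and Pou4f1, a gene of sensory neurons, 2.93 and 3.52. The remaining 2 of the 10 strongest lay 27649 bp upstream of Rasgrf1, with 3.34 and 3.52, and 24399 bp upstream of Zdbf2, with 3.43 and 3.16. Both are imprinted genes. Among these 10 the 2 libraries differed most at Sim1. None of them reached a 6 h list, and the lists give no reads at sites without a peak, so whether signal was lost there was not tested. The smallest fullest window called was 11 reads at 6 h and 13 reads at 0 h.

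Where they were called, kept sites mostly had lower folds at 6 h than at 0 h. Their number, 41, fell to 13 without 6 h library 1, to 26 without 0 h library 2 and to 13 with peaks at an FDR under 0.01 alone. Over the lists in which a site had a peak, the mean log2 fold was lower at 6 h in 38 of 41 kept sites and higher in 3, with a median difference of -0.34. On ChIP reads of the fullest window divided by the recovered scaling, 37 were lower and 4 higher. No test was made, since a kept site is defined by passing the threshold at both times and only 5 of the 41 had a peak in both 6 h lists. The smallest fullest window called was also unequal, 13 reads at 0 h and 11 at 6 h, so kept sites could have fewer reads at 6 h. Their median fullest window held 12 and 13.5 reads in the 6 h libraries, near the lowest number called. The strongest at 0 h was 508 bp upstream of Tlx2, a homeobox gene of enteric neurons (chromosome 6, 83020570 to 83021021). It had 19 and 18 reads in the fullest window at 0 h and 13 in library 1 at 6 h, with folds of 4.0, 4.17 and 3.81. At Slc32a1, the vesicular GABA transporter, the values were 3.91, 2.70 and 2.99. Others of the 10 strongest were at Foxd3, Foxa1, Tcf21 and Otx2, each with a peak in 1 list at each time, and at Gm9953.

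**Figure D5:**
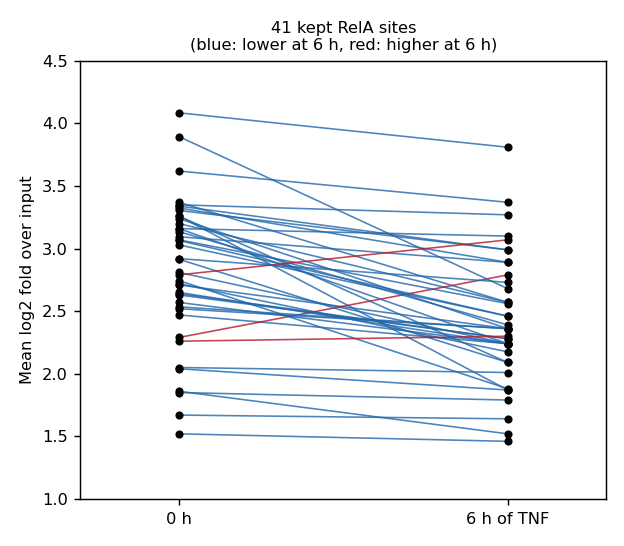
Mean log2 fold over input at 0 h and at 6 h for the 41 kept RelA sites, each mean over the lists that hold a peak (1 or 2), with a line for each site. The line falls in 38 sites (blue) and rises in 3 (red).

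Only 4 sites had a peak in all 4 lists and so allowed a test. They lay near Foxl2, Nkx2-3, Gata6 and Gm10837. At Foxl2, a forkhead gene of the ovary, the fullest window held 19 and 27 ChIP reads at 0 h and 15 and 20 at 6 h, with folds of 3.43 and 3.81 against 3.21 and 3.53. These groups overlap. At Nkx2-3 the folds were 3.70 and 4.09 at 0 h and 3.58 and 1.78 at 6 h, without overlap. By limma the difference at Nkx2-3 was -1.21 ± 0.60 (SE, n = 2 per time, adjusted p = 0.32), and at Foxl2 -0.25 ± 0.60 (adjusted p = 0.688). The SE was estimated by limma across the 4 sites and was 0.60 at each. It is not the spread of the libraries at a single site. All 4 differences were negative, with a median of -0.71. With each library centred on its median over these 4 sites, 2 of the 4 were negative and the median difference was 0.15. Such centring removes any change that the 4 sites share, so it cannot decide whether they fell together. None of the 4 differences passed an adjusted p of 0.05 in limma, and none an unadjusted p of 0.05. With the reads of the fullest window over the recovered scaling as the measure, 1 of the 4 passed, with an adjusted p of 0.0266 in limma. The unequal lowest numbers called, 13 reads at 0 h and 11 at 6 h, apply to these sites as well.

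RelB, measured in the same cells, was called at most of the gained RelA sites and at few of the sites with a peak at 0 h. Of the 2536 gained sites, 1688 overlapped a peak in both RelB lists at 6 h, 66.6% (64.7 to 68.4%), and 84.7% in at least 1. Of the 7568 sites in a single RelA list at 6 h, 789 overlapped both, 10.4% (9.76 to 11.1%), and 24.4% at least 1. Of the 271 lost sites 4 overlapped both, 1.48% (0.575 to 3.73%), and of the 41 kept sites 0, which by the Wilson interval allows up to 8.57%. The RelB lists at 0 h had a peak at 8 of the 312 sites of the RelA 0 h lists and at 1 gained site. A gained site less than 50 kb from the centre was found for 30 of 312 sites of the 0 h lists, 9.62%, near the 13.3% of all protein-coding start sites.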

How the data were processed

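ChIP-seq peak lists of 4 RelA libraries from NfkB2-/- MEFs were analysed, 2 at 0 h and 2 at 6 h of TNF, with 4 RelB lists for comparison. The authors removed adapters with cutadapt, mapped single-end reads to mm9 with Bowtie, used those with 1 unique location, and ran cisGenome on every library by itself with the input as control. The deposited columns used were the false discovery rate of a peak (a q-value), the log2 fold over input in its best window, where the authors had first scaled the input reads, and counts of ChIP and input reads in the peak and its fullest window, not normalized by the authors. Total depth is not given. The scaling of input was recovered from windows in which fold and reads refer to the same position, and at least 98.4% of these matched a whole number of input reads within 0.01 scaled reads.

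Sites, classes, location by GENCODE annotation of the same build, motif matches and CpG content (observed CpG times length over C times G) were computed for all sites. A site in several lists takes the highest fold and fullest window and the summed reads of its peaks. Distances to start sites were counted from site edges for genes near sites and from centres otherwise. The centre of a site is the midpoint of its joined peaks, not the position of its strongest window. Share intervals are Wilson 95% and, like all read numbers, cover counting error only. Peak numbers were compared by an exact permutation test and folds at sites in all 4 lists by limma (lmFit, eBayes, Benjamini-Hochberg over these sites). All other results are counts and shares without a test. The share of repeats was not computed, because the genome used was not masked. Replicate numbers come from the labels and served as a block in an alternative. The steps were tested on simulated data.

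Named sites followed a rule: the 10 strongest gained and the 3 weakest, up to 10 kept and 10 lost sites by fold at 0 h, the 5 genes with most gained sites, and the members of the gene lists. Members, lists and alternatives were chosen with earlier results of these data known. Symbols of list genes were matched to the annotation, in which Cxcl11 and Nlrc5 were not found. Of the 10 kept sites, 1 is not reported here.

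Tests of folds ran in limma 3.58.1 under R 4.3.3. The remaining steps ran in Python 3.11.15 (scipy 1.17.1, pandas 2.3.3, numpy 2.4.6, pysam 0.24.0) after indexing the genome with samtools 1.23.1, and figures were drawn with matplotlib 3.10.9.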

Additional observations from a re-analysis of the deposited data

How the results depend on the processing

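Of 93 alternative values, 67 were counted as unchanged. Counts had to stay within 1.5 times the main count and shares within the main interval. Peak numbers were judged by direction alone. Folds at sites in all lists were judged by direction and by no site passing the threshold. The CpG ratio was counted as unchanged without a limit. Peak numbers kept their direction in every setting, with log2 differences from 4.92 to 5.23 when a library was left out. With an FDR under 0.01 there were 13 kept and 124 lost sites and 74.8% of gained sites with a κB match. Merging peaks up to 200 bp apart gave 68.6%. Windows of 50 bp and 200 bp to either side gave 46.2% and 84.4%, as fewer or more bases were searched. Promoters of 2 kb held 19.3% of gained sites, and with protein-coding genes only 14.2%. Genes near gained sites numbered 650 at 5 kb and 5199 at 100 kb. Requiring 13 reads in the fullest window, chosen after seeing the data, left 22 kept sites. Without a library, gained sites lay between 2536 and 7020, kept sites between 13 and 32, lost sites between 156 and 301, promoter shares between 14.5% and 15.9%, κB shares between 49.5% and 71.3%, and genes between 2985 and 6558. The high counts and low κB shares came from leaving out a 6 h library (5675 and 7020 gained sites without 6 h replicate 1 and 2), when a peak in the other list sufficed. Lost sites fell to 166 and 156 without 0 h replicate 1 and 2, and kept sites to 26 without 0 h replicate 2 and 13 without 6 h replicate 1.

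The median difference at the 4 sites in all lists was -0.71. With each library centred on its median over these same 4 sites, which removes any change they share, it was 0.15. On reads of the fullest window it was -0.44, with 1 site past the threshold. Without a library it lay between -1.14 and -0.27. With a replicate block it was -0.71 and no site passed. Deviations of same-numbered libraries correlated at 0.329 over 4 sites, and with 2 pairs the numbers were not taken to pair samples. The share of developmental transcription factors at 0 h sites was 59.1% at an FDR under 0.01 and 58.8% for start sites within 50 kb.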
